A study of Mus musculus with 6 samples.

Results

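Genes of sterol and fatty acid synthesis were followed in RNA sequencing of microglia, the resident macrophages of the brain. The set holds 30 genes, chosen by what their products do: enzymes that build cholesterol, the proteins that sense and move it, and enzymes that build fatty acids. They were found by symbol in the gene-name column of a table of 55493 genes, and all 30 passed the filter on low counts, as did 18210 genes in all. The cells were sorted as CD45-low CD11b-positive from one hemisphere of male mice with the genotype ILT Telo Tg x 5XFAD, that is, with a human transgene of the leukocyte immunoglobulin-like receptor (LILR) region on an amyloid model of Alzheimer disease, so control and treated mice carry the same alleles. From the age of 4 months the mice received 8 weekly intraperitoneal doses of 60 mg/kg, either of an Fc-mutant antibody to human LILRB4 (clone ZM3.1, the anti-LILRB4 group, 3 libraries) or of an Fc-mutant control antibody (clone 27D6, labelled Ctrl IgG2a, 3 libraries). The promoter of the transgene is not given in the sources used here, and the labels do not say whether each library is a separate animal, so the p-values here reflect only differences among libraries, which may be technical. The comparison asks what blocking LILRB4, an inhibitory receptor of myeloid cells, does to the microglial transcriptome, and here to its lipid synthesis genes.

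Cholesterol is built from acetyl-CoA through mevalonate and isoprenoid units to squalene, which is closed into lanosterol and trimmed to cholesterol. The pathway is controlled by SREBP transcription factors, which the escort protein SCAP carries from the endoplasmic reticulum to the Golgi when sterol is low and which INSIG proteins hold back when sterol is high. In the adult brain cholesterol is made locally, since lipoproteins of the blood do not cross the barrier, and microglia both make sterols and take up those shed from myelin and dying cells. Fatty acid synthesis draws on the same acetyl-CoA and is controlled mainly by SREBP-1 and the oxysterol-sensing LXR receptors.

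SREBP factors act at promoters together with the factor NF-Y, whose site is the CCAAT box. Promoter windows of 300 bases (250 before to 50 after the gene start, RefSeq, GRCm38.p6) were matched for 24 of the 30 genes by symbol, in 32 windows since some genes have several starts. Fdft1, Fdps, Scd1, Scd2, Sqle and Stard4 were not matched. The CCAAT box (CCAAT, on either strand, so also written ATTGG) was found in 22 of the 32 windows and in 37.4% of all 32841 windows of the same length. The E-box CACGTG, which the basic helix-loop-helix SREBP proteins can also bind, was in 6 of the 32 windows, those of 5 genes since overlapping windows of Scap share 1 match, and in 7.15% of all windows. The sterol regulatory element, searched on both strands as TCACNCCAC, was in 1 of the 32 windows, that of Hmgcs1, and in 1.24% of all windows. In the windows printed, no match overlaps another. These matches describe letters and not occupied sites, and other forms of the sterol regulatory element were not searched.

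4 windows are printed, 5′ to 3′ on the strand of the gene. Insig1 was taken as the feedback gene of the pathway. Hmgcs1 was taken as the only member with a window that matched the sterol regulatory element in the form searched. Tm7sf2 and Msmo1 are the sterol enzymes with the smallest p-values between treatments. Capitals mark CCAAT boxes in all 4 windows, the sterol regulatory element in Hmgcs1 and the E-box in Insig1. The windows are chr13:119690101-119690400 on the plus strand for Hmgcs1, chr5:28071162-28071461 on the plus strand for Insig1, chr19:6067801-6068100 on the minus strand for Tm7sf2 and chr8:64733529-64733828 on the minus strand for Msmo1.
Hmgcs1: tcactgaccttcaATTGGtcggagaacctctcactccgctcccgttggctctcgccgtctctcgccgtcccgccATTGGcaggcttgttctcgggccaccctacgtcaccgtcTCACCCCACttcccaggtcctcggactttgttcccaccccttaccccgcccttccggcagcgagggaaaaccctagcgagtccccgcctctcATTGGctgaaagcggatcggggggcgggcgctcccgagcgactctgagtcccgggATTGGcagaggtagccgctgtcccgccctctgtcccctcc
Insig1: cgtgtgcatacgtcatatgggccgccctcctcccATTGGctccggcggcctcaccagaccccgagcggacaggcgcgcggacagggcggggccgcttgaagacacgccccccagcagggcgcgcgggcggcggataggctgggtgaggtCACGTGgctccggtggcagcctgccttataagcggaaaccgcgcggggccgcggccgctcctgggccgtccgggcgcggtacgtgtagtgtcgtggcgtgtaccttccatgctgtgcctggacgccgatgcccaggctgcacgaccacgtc
Tm7sf2: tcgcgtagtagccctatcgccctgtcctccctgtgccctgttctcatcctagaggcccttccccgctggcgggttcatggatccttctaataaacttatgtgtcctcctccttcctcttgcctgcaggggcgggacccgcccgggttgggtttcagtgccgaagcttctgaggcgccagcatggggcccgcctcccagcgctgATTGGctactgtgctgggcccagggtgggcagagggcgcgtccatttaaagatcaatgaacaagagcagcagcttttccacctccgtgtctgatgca
Msmo1: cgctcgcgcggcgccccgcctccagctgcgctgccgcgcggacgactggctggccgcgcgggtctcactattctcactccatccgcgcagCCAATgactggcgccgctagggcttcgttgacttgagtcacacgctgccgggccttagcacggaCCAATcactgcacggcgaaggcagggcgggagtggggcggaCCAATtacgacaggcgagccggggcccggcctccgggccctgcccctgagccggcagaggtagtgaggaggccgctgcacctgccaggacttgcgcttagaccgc

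Hmgcs1 held 4 CCAAT boxes besides its sterol regulatory element, which began 137 bases before the start. Msmo1 held 3 CCAAT boxes, while Tm7sf2 held 1, which began 47 bases before the start, and neither an E-box nor a sterol regulatory element in this window. Insig1 held 1 CCAAT box and 1 E-box. The starts used here are those of RefSeq, and the GENCODE M21 annotation differs. There Tm7sf2 spans 6062821 to 6068373, so its window lies within the gene. Msmo1 spans 64718139 to 64733792 there, so most of its window does too.

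Total counts per library were between 39805118 and 56345514. The sorted cells carried microglial markers at high levels: P2ry12 was at 13223 ± 377 CPM (counts per 1000000 reads after TMM scaling, SD, n = 3) in controls and 12551 ± 1140 CPM in treated libraries, and Tmem119, Cx3cr1, Csf1r, Sall1, Siglech, Gpr34, Olfml3 and Fcrls together summed to between 23796 and 26538 CPM in controls and between 25955 and 29967 CPM in treated libraries. Of the 10 microglial markers listed, 3 (Csf1r, Fcrls and Sall1) were higher in treated libraries at an unadjusted p under 0.05 in edgeR, against 4.12% of all genes. Groups without overlap, treated above control, were found in 3 of the 10, against 6.94% of all genes. The part of these differences in the values of the lipid genes was not tested. Markers of other cell types were summed in the same way. Oligodendrocytes make much cholesterol for myelin, and of their 10 markers Cldn11, Ermn, Mal, Mog and Ugt8a had no read in 3 or more libraries. The list summed to 125, 144 and 130 CPM in controls and to 165, 159 and 171 CPM in treated libraries, so each treated library lay above each control. Of its 6 tested markers, 2 (Cnp and Mobp) were higher at an unadjusted p under 0.05, against 4.12% of all genes. Cnp was the most abundant (77.5 ± 4.73 CPM in controls and 102.6 ± 10.3 CPM in treated libraries, SD, n = 3, unadjusted p 0.00757 and adjusted p 0.485 in edgeR). Without Cnp and Mag, the next in abundance, the list summed to between 20.5 and 29.0 CPM in controls and between 21.6 and 41.0 CPM in treated libraries, and the part of these cells in the values of the lipid genes was not tested. The 10 astrocyte markers summed to 261, 283 and 256 CPM in controls and to 276, 249 and 291 CPM in treated libraries, of which the glutamate transporter Slc1a3 made up 259 ± 11.8 CPM in controls and 263 ± 21.8 CPM in treated libraries (SD, n = 3). Without Slc1a3 and Aldoc they summed to between 3.03 and 6.15 CPM in controls and between 2.02 and 6.54 CPM in treated libraries, and Fgfr3 had no read in 3 or more libraries. The 10 neutrophil markers summed to 1338, 572 and 611 CPM in controls and to 135, 1131 and 219 CPM in treated libraries, so treated library 2 stood apart from its group. Their median log2 fold change was -0.88, and 8 of the 10 were negative. At an unadjusted p under 0.05, 2 (Mmp8 and Retnlg) were lower in treated libraries, against 3.91% of all genes, as was the monocyte marker Plac8. Monocyte markers were likewise highest in control library 1 and treated library 2 of their groups, at 90.1, 43.5 and 49.3 CPM in controls and at 33.0, 67.5 and 26.7 CPM in treated libraries. Summed markers of neurons (2.36 to 10.6 CPM), endothelium (7.94 to 21.7 CPM) and border-associated macrophages (38.5 to 83.6 CPM) overlapped between groups, and Nefl, Stmn2, Cldn5 and Slco1a4 had no read in 3 or more libraries. All 8 border-associated macrophage markers had positive log2 fold changes (median 0.45), as had the 3 tested endothelial markers (median 1.01). Of 3 tested neuron markers 1 was positive and 2 negative (median -0.25). In these lists 0 markers had an unadjusted p under 0.05 in edgeR, and the part of these cells in the values of the lipid genes was not tested.

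Levels were first compared between genes as CPM per kilobase of exon (CPM divided by the length of all annotated exons, GENCODE M21), in controls. Ebp, the sterol isomerase that shifts a double bond late in the pathway, had the highest level of the set at 78.8 ± 3.80 CPM per kilobase (SD, n = 3). It was followed by Insig2, an SREBP retention protein, at 33.1 ± 3.82, Ggps1, which makes the geranylgeranyl donor for protein prenylation, at 19.3 ± 1.01, Msmo1, a sterol methyl oxidase, at 18.5 ± 1.79 and Dhcr7, the reductase that makes cholesterol in the final step of a branch, at 16.7 ± 1.24. The lowest levels were those of Scd1 at 0.260 ± 0.140, Stard4 at 0.290 ± 0.113, Acaca at 0.338 ± 0.189 and Sqle at 0.377 ± 0.103 CPM per kilobase. Within the sterol route, squalene epoxidase (Sqle) and lanosterol synthase (Lss, 0.799 ± 0.431) lay below each of the later enzymes in the set in all 3 controls. The exon length counts every annotated transcript of a gene and is longest for Acaca (17074 bases), so the levels per kilobase depend on that choice. The rank of Lss does too, since its exon length is 10787 bases against 4403 for Tm7sf2. In CPM, without division by length, Lss was at 13.7, 7.44 and 4.67 in controls 1, 2 and 3. Tm7sf2 was at 7.14, 7.71 and 9.70 CPM, so Lss lay above it in control library 1.

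**Figure D1:**
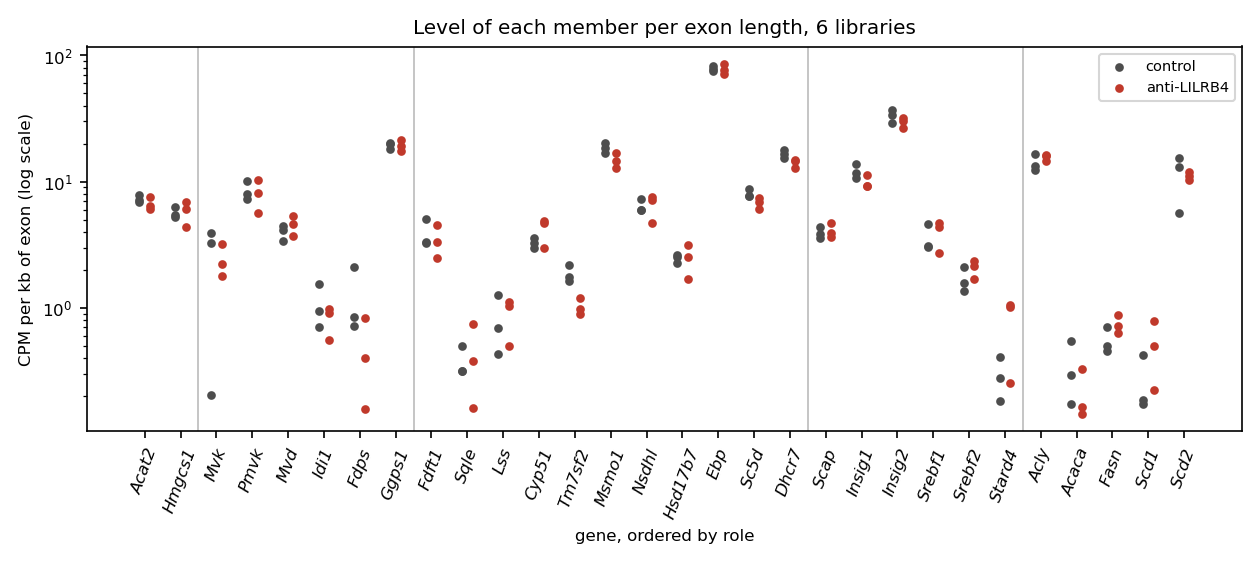
Level of each of the 30 genes in CPM per kilobase of exon on a log axis, 1 point per library, grey for the 3 controls and red for the 3 anti-LILRB4 libraries, with genes ordered by role and vertical lines between roles. Ebp stands at the top in both groups, while Sqle, Stard4, Acaca, Fasn and Scd1 stay near or below 1.

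No gene of the set passed the test between anti-LILRB4 and control. Of 30 members, 0 were called by edgeR's quasi-likelihood test at a Benjamini-Hochberg adjusted p under 0.05 over all 18210 genes, against 0% of all genes (0 called), and the smallest adjusted p among members was 0.477. At an unadjusted p under 0.05, 3 members were lower in treated libraries (Tm7sf2, Msmo1 and Fdps), against 3.91% of all genes, and 1 was higher (Stard4), against 4.12% of all genes. Groups without overlap, treated below control, were found in 4 members, which all encode sterol enzymes (Tm7sf2, Msmo1, Sc5d and Dhcr7), against 7.79% of all genes, and groups without overlap, treated above control, in 0 members, against 6.94% of all genes. The median log2 fold change (treated minus control) was -0.01 over the 30 members and -0.01 over all tested genes, with 14 members positive and 16 negative. DESeq2 on the same counts called 0 of the 30, against 1.1% of the 15378 genes it adjusted. The authors' deposited table gives 0 of the 30 an adjusted p under 0.05, against 0.981% of 19059 genes, and its smallest adjusted p for a member is 0.0674, for Tm7sf2. In these bulk libraries fewer cells of a type and less RNA per cell cannot be told apart.

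The width of the intervals differed widely between members. The 95% interval of the log2 fold change lay within a 1.5-fold change in either direction for 11 of the 30 genes and within a 2-fold change for 21. The narrowest was that of Ebp, from -0.26 to 0.22, and the widest was that of Mvk, from -1.66 to 1.59.

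**Figure D2:**
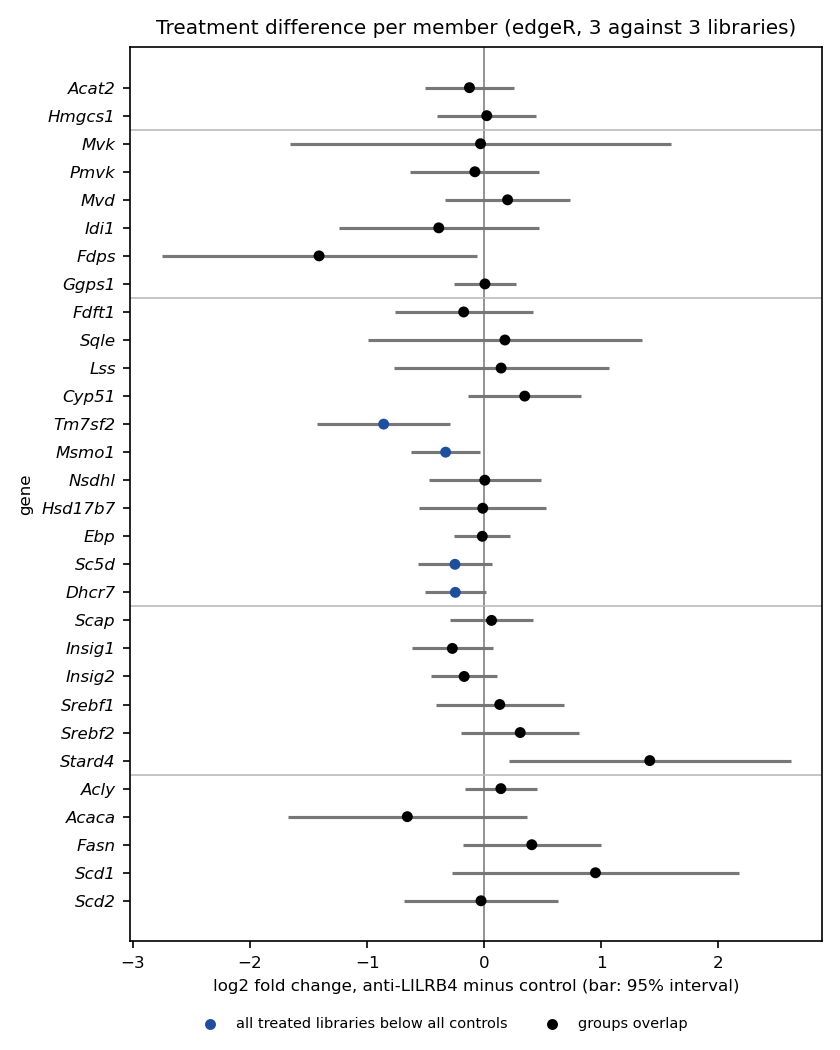
Log2 fold change of each of the 30 genes, anti-LILRB4 minus control, with its 95% interval from edgeR's quasi-likelihood fit (3 against 3 libraries), ordered by role, with the genes whose treated libraries all lie below all controls in blue. The 4 blue genes are the sterol enzymes Tm7sf2, Msmo1, Sc5d and Dhcr7, and the interval lies wholly above or below 0 only for Tm7sf2, Msmo1, Fdps and Stard4.

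The groups overlapped in both entry enzymes. Hmgcs1, which condenses acetyl-CoA units toward mevalonate, was at 28.7, 24.3 and 25.1 CPM in controls 1, 2 and 3 and at 31.6, 20.0 and 27.8 CPM in anti-LILRB4 libraries 1, 2 and 3. The treated libraries spanned the whole range of the controls, and the log2 fold change was 0.02 (SE 0.19, adjusted p 0.988 in edgeR), with a 95% interval from -0.40 to 0.45. The sign of this small value was negative under upper quartile scaling and in limma-voom. Acat2, the cytosolic thiolase that supplies acetoacetyl-CoA, was between 17.6 and 19.9 CPM in controls and between 15.5 and 19.4 CPM in treated libraries (log2 fold change -0.13). A stretch of 445 bases at 98.7% identity is shared by transcripts of Acat2 and of the chaperonin gene Tcp1, which had 30954 reads against 4790 for Acat2, and Acat3, at 97.7% identity over 1477 bases, had 197 reads. The counts of these genes are therefore uncertain.

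The 6 isoprenoid enzymes had a median log2 fold change of -0.06, with 2 positive and 4 negative. Among them Fdps, which makes farnesyl diphosphate at the branch between sterols and prenylated proteins, had the estimate farthest from 0. It was at 3.01, 8.92 and 3.57 CPM in controls and at 3.50, 0.666 and 1.68 CPM in treated libraries, that is, from 38 to 360 reads. The groups overlapped, since treated library 1 lay among the controls and control library 2 stood well above every other library. The estimate in log2 was -1.41 (SE 0.60, unadjusted p 0.0416 and adjusted p 0.605 in edgeR). Without control library 2 it was -0.75 (unadjusted p 0.249), without treated library 2 -0.99 (0.111), without treated library 3 -1.32 (0.103) and without treated library 1 -2.15 (0.00789), all in edgeR. Fdps (GRCm38 chromosome 3, 89093588 to 89101959, minus strand) has 4 separate loci in the table with transcripts at 96.1 to 98.9% identity over 605 to 1066 bases. The largest of them, Gm3571, had between 35 and 46 reads per library, with overlapping groups, and the locus Gm43738, whose exons overlap those of Fdps, had 9 reads in all. How the reads were shared among these loci is not given in the sources used here, so the Fdps level is uncertain.

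Mvk, mevalonate kinase, had the widest span of all members, 19.5-fold between its highest and lowest library. It was at 0.543, 10.6 and 8.74 CPM in controls and at 4.74, 8.64 and 6.0 CPM in treated libraries. Control library 1 held 24 reads where each other library held between 214 and 493. The log2 fold change of -0.03 (adjusted p 0.995, edgeR) was -0.58 without control library 1, and it was 0.81 in limma-voom. Pmvk and Mvd, the kinase and the decarboxylase that follow, and Ggps1 had log2 fold changes of -0.08, 0.20 and 0.01 with overlapping groups. Pmvk was between 12.5 and 17.2 CPM in controls and between 9.66 and 17.7 CPM in treated libraries, and Mvd between 6.26 and 8.22 CPM and between 6.92 and 10.0 CPM. Ggps1 was between 85.9 and 94.6 CPM in controls and between 83.1 and 102 CPM in treated libraries, and 257 bases of its exons overlap those of Arid4b. Idi1, the isopentenyl diphosphate isomerase, was at 5.38, 3.32 and 2.48 CPM in controls and at 3.41, 1.96 and 3.18 CPM in treated libraries. Its log2 fold change of -0.39 was -0.03 without control library 1, -0.17 without treated library 2 and -0.61 without control library 3.

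**Figure D3:**
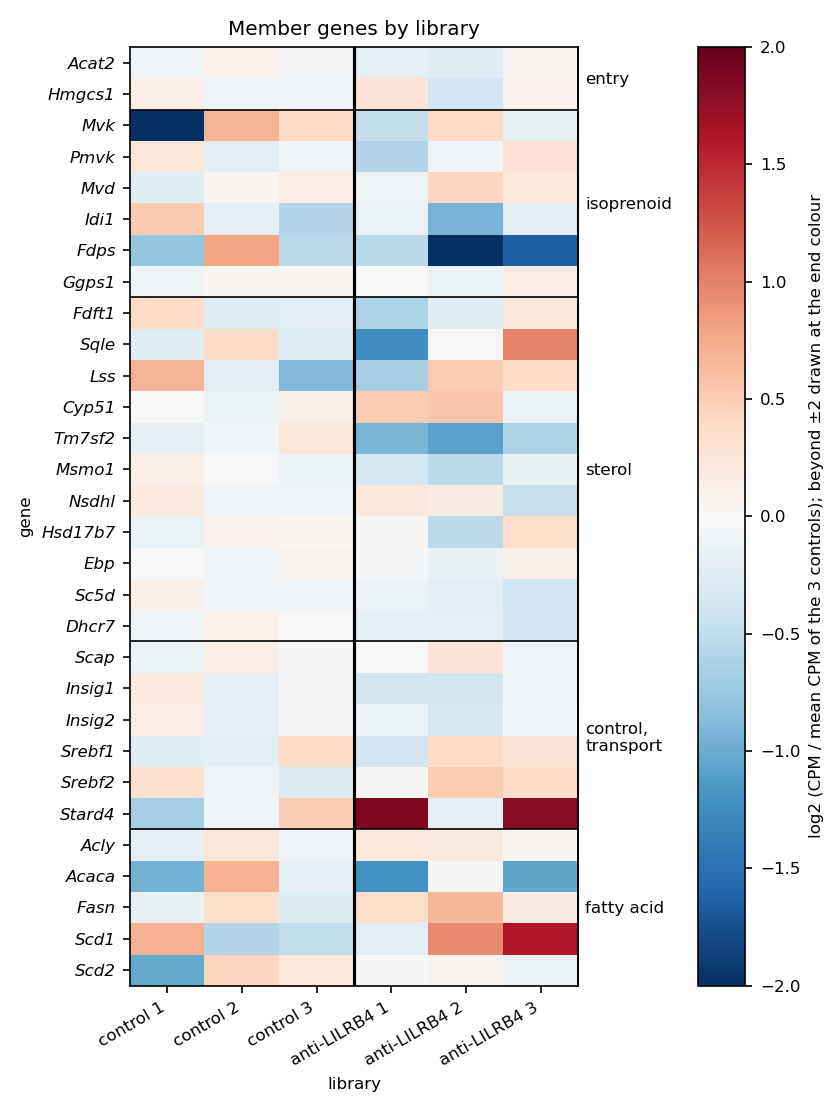
Each of the 30 genes (rows, ordered by role) in each of the 6 libraries (columns), as log2 of its CPM over the mean CPM of the 3 controls, red for higher and blue for lower. Mvk in control library 1 and Fdps in anti-LILRB4 library 2 reach the blue end of the scale, Stard4 is deep red in anti-LILRB4 libraries 1 and 3, and the row of Tm7sf2 is blue in all 3 treated libraries.

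The 11 sterol enzymes that act after the isoprenoid branch held the 4 members whose groups did not overlap, while 4 of the 11 estimates were positive and 7 negative, with a median of -0.02 in log2. Tm7sf2, a sterol reductase that acts after lanosterol demethylation, was at 7.14, 7.71 and 9.70 CPM in controls and at 4.32, 3.91 and 5.32 CPM in treated libraries. The highest treated library lay below the lowest control. Its mean was 8.18 ± 1.34 CPM (SD, n = 3) in controls and 4.52 ± 0.725 CPM in treated libraries, and the log2 fold change was -0.86 (SE 0.25), with a 95% interval from -1.43 to -0.29 (unadjusted p 0.00713 in the edgeR fit, adjusted p 0.477). The sign and an unadjusted p under 0.05 were found with each of the 6 libraries left out in turn, between -0.99 and -0.72. Its adjusted p was 0.0866 in DESeq2 and 0.442 in limma-voom. Tm7sf2 lies on GRCm38 chromosome 19, 6062821 to 6068373, minus strand, and 532 bases of its exons overlap those of Vps51 on the same strand. Vps51, a subunit of a Golgi tethering complex, was at 24.2 ± 4.68 CPM in controls and 25.9 ± 4.52 CPM in treated libraries, or 0.10 in log2 (adjusted p 0.931, edgeR).

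Msmo1, the sterol methyl oxidase, was at 125.0, 112.6 and 103.0 CPM in controls and at 89.0, 79.2 and 102.9 CPM in treated libraries. Control library 3 and treated library 3 were almost equal, and with the size factors of DESeq2 in place of TMM the groups of Msmo1 overlapped. The estimate in log2 was -0.33 (SE 0.13, unadjusted p 0.0322 and adjusted p 0.573 in edgeR). It kept its sign without each library, between -0.43 and -0.23, but the unadjusted p was 0.05 or more in 4 of these 6 fits. Msmo1 lies on chromosome 8, 64718139 to 64733792, minus strand.

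Sc5d and Dhcr7, a desaturase and a reductase that act in succession at the end of the route, gave a similar picture at smaller size. Sc5d was at 42.7, 37.4 and 37.6 CPM in controls and at 35.9, 33.4 and 29.6 CPM in treated libraries, or -0.25 in log2 (SE 0.14, adjusted p 0.687 in edgeR). Dhcr7 was at 89.9, 104 and 96.4 CPM in controls and at 84.8, 85.8 and 74.3 CPM in treated libraries, also -0.25 in log2 (SE 0.12, unadjusted p 0.0633 and adjusted p 0.640 in edgeR). In both genes the gap between the groups was small, from 85.8 to 89.9 CPM in Dhcr7. The unadjusted p of Dhcr7 was 0.0413 with upper quartile scaling and 0.0473 in DESeq2. In edgeR it was 0.0894 with library size only and 0.0923 without a filter on low counts. With each of the 6 libraries left out in turn it was between 0.0375 and 0.207 in edgeR, and under 0.05 in 1 of these fits. For Sc5d these fits gave an unadjusted p between 0.0854 and 0.281 in edgeR.

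**Figure D4:**
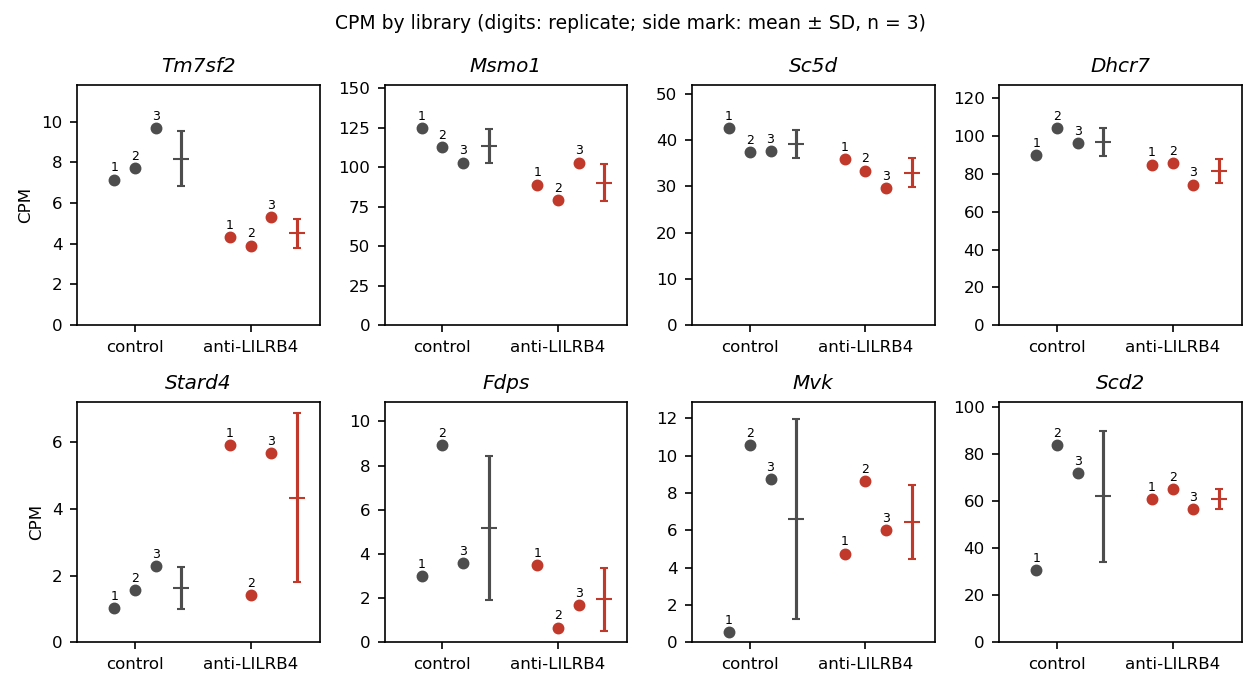
CPM of 8 members in each library (linear axes from 0, digits give the replicate number, side marks give the mean ± SD of 3 libraries), grey for control and red for anti-LILRB4. The groups are apart in Tm7sf2, Msmo1, Sc5d and Dhcr7, nearly touching in Msmo1, and in Stard4, Fdps, Mvk and Scd2 single libraries lie far from the others of their group.

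The other 7 sterol enzymes overlapped between groups. Cyp51, the lanosterol demethylase, was at 14.5, 13.2 and 15.7 CPM in controls and at 20.6, 21.3 and 13.1 CPM in treated libraries, so 2 treated libraries lay above all controls and the third just below them. The estimate in log2 was 0.35 (SE 0.22, unadjusted p 0.143 and adjusted p 0.736 in edgeR). It was 0.54 without treated library 3 and 0.23 without treated library 2 (unadjusted p 0.0204 and 0.368, edgeR). With each of the 6 libraries left out in turn, the unadjusted p was under 0.05 in 1 fit. Akap9, with which its exons share 166 bases on the opposite strand, was at 35.0, 35.3 and 34.5 CPM in controls and at 44.2, 58.3 and 36.0 CPM in treated libraries, so the same 2 treated libraries were high in both genes, and its part in the Cyp51 values was not tested. Sqle, squalene epoxidase, was at 1.76, 2.75 and 1.75 CPM in controls and at 0.887, 2.10 and 4.10 CPM in treated libraries, from 40 to 169 reads. The treated group held both its lowest and its highest library, and the log2 fold change of 0.18 (SE 0.52, adjusted p 0.960 in edgeR) was -0.48 without treated library 3.

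Lss spanned 2.95-fold between libraries, from 13.7 CPM in control library 1 to 4.67 CPM in control library 3, both of the same group, and treated libraries lay between 5.41 and 12.1 CPM. Its log2 fold change was 0.14 with an interval from -0.77 to 1.06, and 0.65 without control library 1. Fdft1, squalene synthase, was between 13.8 and 21.5 CPM in controls and between 10.6 and 19.2 CPM in treated libraries (log2 fold change -0.18). Its exons share 774 bases with those of Ctsb, the gene of the lysosomal protease cathepsin B, which stood at 1659 ± 103 CPM in controls and 1721 ± 279 CPM in treated libraries, and the part of Ctsb reads in the Fdft1 count was not tested. Nsdhl, Hsd17b7 and Ebp, which complete the removal of methyl groups and shift the ring double bond, had log2 fold changes of 0.01, -0.01 and -0.02. Nsdhl was between 17.0 and 20.9 CPM in controls and between 13.3 and 21.4 CPM in treated libraries, and Hsd17b7 between 11.5 and 13.4 CPM and between 8.71 and 16.1 CPM. Ebp varied least of all members, 1.20-fold from its lowest to its highest library, at 182 ± 8.79 CPM in controls and 180.0 ± 16.2 CPM in treated libraries.

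Of the 6 genes of control and transport, none had groups that lay apart, and 4 estimates were positive and 2 negative, with a median of 0.10 in log2. Srebf2, which encodes the main factor for cholesterol genes, was at 15.0, 11.2 and 9.85 CPM in controls and at 12.2, 17.0 and 15.4 CPM in treated libraries. The highest 2 values were treated libraries, but the third treated library lay among the controls, and the log2 fold change was 0.31 (SE 0.23), with an interval from -0.20 to 0.81 (adjusted p 0.775, edgeR). Srebf1, which encodes the factor that drives mostly fatty acid genes, was at 17.1, 17.4 and 25.9 CPM in controls and at 15.4, 26.4 and 24.5 CPM in treated libraries. Each group held low and high libraries, and the log2 fold change of 0.13 (SE 0.24, adjusted p 0.924 in edgeR) was -0.01 without treated library 2 and 0.36 without control library 3. Scap, the escort protein, was at 26.7, 32.5 and 28.5 CPM in controls and at 29.0, 35.3 and 27.3 CPM in treated libraries, or 0.06 in log2 (SE 0.16, adjusted p 0.950 in edgeR).

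The retention proteins were lower on average in treated libraries without passing the test. Insig1, itself an SREBP target and so a readout of the pathway, was at 42.6, 32.8 and 35.9 CPM in controls and at 28.7, 28.7 and 34.7 CPM in treated libraries. Only treated library 3 lay within the range of the controls, and the estimate in log2 was -0.27 (SE 0.16, adjusted p 0.696 in edgeR). Insig2 was at 127, 101 and 117 CPM in controls and at 105, 91.4 and 111 CPM in treated libraries, or -0.17 in log2 (SE 0.13, adjusted p 0.779 in edgeR), with an interval from -0.46 to 0.11.

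Stard4, a carrier that moves cholesterol between membranes, was the member with the largest positive difference. It was at 1.02, 1.56 and 2.28 CPM in controls and at 5.90, 1.42 and 5.66 CPM in treated libraries, or 45, 63 and 100 reads against 266, 81 and 233. Treated libraries 1 and 3 lay well above every control, while treated library 2 lay among the controls. The mean was 1.62 ± 0.631 CPM in controls and 4.32 ± 2.52 CPM in treated libraries (SD, n = 3), and the estimate in log2 was 1.41 (SE 0.54), with a 95% interval from 0.21 to 2.62 (unadjusted p 0.0256 in the edgeR fit, adjusted p 0.560). It was 1.84 without treated library 2 and 1.74 without control library 3 (unadjusted p 0.00157 and 0.0218, edgeR), and between 1.13 and 1.40 with an unadjusted p between 0.0595 and 0.0981 without treated library 1, treated library 3, control library 1 or control library 2. In limma-voom it was 1.15 (unadjusted p 0.0935). Treated library 2 was also the treated library in which neutrophil markers were high (1131 CPM against 135 and 219), and the part of such cells in the Stard4 values was not tested. Stard4 lies on GRCm38 chromosome 18, 33199355 to 33213862, minus strand.

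None of the 5 fatty acid genes passed the test, and their estimates lay on both sides of 0 (3 positive and 2 negative, median 0.14 in log2). Acly, which makes cytosolic acetyl-CoA from citrate, was the steadiest, at 65.1, 88.0 and 69.7 CPM in controls and at 85.5, 84.2 and 76.1 CPM in treated libraries, or 0.14 in log2. Acaca, acetyl-CoA carboxylase, was at 2.98, 9.30 and 5.03 CPM in controls and at 2.48, 5.64 and 2.82 CPM in treated libraries. Its log2 fold change of -0.66 (SE 0.46) was -0.13 without control library 2 and -1.11 (unadjusted p 0.0477, edgeR) without treated library 2. Fasn, the fatty acid synthase, was at 5.49, 7.78 and 5.03 CPM in controls and at 7.80, 9.57 and 6.87 CPM in treated libraries. The groups of Fasn overlapped through control library 2 alone, and the estimate in log2 was 0.41 (SE 0.26, adjusted p 0.744 in edgeR), or 0.62 without that library.

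The paralogous desaturases Scd1 and Scd2, which put the first double bond into saturated fatty acids, stood at very different levels. Scd2 was at 62.1 ± 27.9 CPM (SD, n = 3; 11.4 ± 5.10 per kilobase) in controls against 1.27 ± 0.683 CPM (0.260 ± 0.140 per kilobase) for Scd1. Scd2 was at 30.7, 83.8 and 71.8 CPM in controls and at 60.8, 65.2 and 56.7 CPM in treated libraries. Control library 1 lay far below the other controls, and the log2 fold change of -0.03 was -0.35 without it (unadjusted p 0.0255, adjusted p 0.738, edgeR) and 0.25 without control library 2. Scd1 was at 2.06, 0.843 and 0.910 CPM in controls and at 1.09, 2.44 and 3.86 CPM in treated libraries, or 34 to 159 reads. Its groups overlapped, and the estimate in log2 was 0.95 (SE 0.55, adjusted p 0.700 in edgeR). It was 1.48 without control library 1 and 1.31 without treated library 1 (unadjusted p 0.0317 and 0.0328, edgeR), and 0.47 without treated library 3. The longest shared stretch of the transcripts at 95% identity or more was 623 bases, and the part of Scd2 reads in the Scd1 count was not tested.

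No library was low or high in all members. Summed CPM of all 30 genes was between 1030 and 1071 in controls and between 967 and 1036 in treated libraries, and the groups overlapped. Treated library 2 held the lowest value of 11 members and the highest of 6, and control library 1 the lowest of 6 and the highest of 7. The median coefficient of variation in controls was 16.3% over the 30 members, against 20.9% over all tested genes. In 9 members the highest library was less than 1.5-fold above the lowest, and in 5 members (Mvk, Fdps, Stard4, Sqle and Scd1) it was 4-fold or more above it. In 11 members exons overlap those of another gene, and near-identical copies of Idi1, Fdft1, Ggps1 and Acaca elsewhere in the genome had between 18 and 125 reads each over the 6 libraries.

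Further genes of lipid synthesis were read from the same fit, and edgeR called 0 of them at an adjusted p under 0.05. Over all genes, 3.91% were lower and 4.12% higher at an unadjusted p under 0.05. Of 11 genes that process SREBP or degrade sterol-regulated proteins, neither direction had a gene at an unadjusted p under 0.05 (0 and 0, median log2 fold change -0.01). Syvn1, a ubiquitin ligase of the endoplasmic reticulum, had the smallest p, with 81.1 ± 7.01 CPM in controls and 67.9 ± 7.26 CPM in treated libraries, and Erlin1, an endoplasmic reticulum lipid raft protein, was next with an estimate of 0.23 in log2. Of 14 tested genes of fatty acid elongation, desaturation and substrate supply, 1 was lower and 0 higher at an unadjusted p under 0.05 (median 0.07). This was Elovl5, an elongase of polyunsaturated fatty acids, at 90.2 ± 5.01 CPM in controls and 73.5 ± 10.1 CPM in treated libraries (log2 fold change -0.30, adjusted p 0.620 in edgeR). Elovl6, an elongase of saturated fatty acids, was at 0.520, 1.14 and 0.979 CPM in controls and at 1.42, 1.77 and 2.09 CPM in treated libraries. Its groups lay apart but at a very low level (log2 fold change 1.00, adjusted p 0.632 in edgeR). In this list all treated libraries lay above all controls in 1 gene, against 6.94% of all genes. They lay below all controls in 2, Elovl5 among them, against 7.79% of all genes.

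Of 10 genes of isoprenoid branches and of 12 genes of acyl-CoA and glycerolipid synthesis, an unadjusted p under 0.05 was found for 0 in each direction, with medians of 0.12 and 0.16. The smallest p-values were those of the prenyltransferase subunits Pggt1b (0.19 in log2) and Rabggtb (-0.35) and of the phosphatidate phosphatases Lpin1 (0.32) and Lpin2 (0.21), all with overlapping groups. Of 9 genes of LXR-linked efflux, degradation and storage of sterol, 2 were lower and 1 higher at an unadjusted p under 0.05 (median 0.06). The shares over all genes were 3.91% lower and 4.12% higher. Soat1, which esterifies cholesterol for storage, was at 346, 358 and 339 CPM in controls and at 296, 261 and 264 CPM in treated libraries. All treated libraries lay below all controls, and the estimate in log2 was -0.35 (SE 0.10, adjusted p 0.445 in edgeR). Mylip, an LXR target that marks lipoprotein receptors for degradation, was at 228 ± 8.82 CPM in controls and 175 ± 4.37 CPM in treated libraries, with a log2 fold change of -0.38 (adjusted p 0.426, edgeR). The 1 gene of this list that was higher in treated than in control libraries at that unadjusted p was Nr1h2, which encodes an LXR receptor. It is named after its value was seen, and its values are not given here.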

How the data were processed

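RNA of sorted microglia was sequenced in 6 libraries, grouped and numbered by their titles. Per the submitters' processing notes, STAR, Subread featureCounts, Salmon and DESeq2 1.38.3 were used, with no role named. The sources used here give neither a genome build nor a rule for reads with several matches. Per the labels' protocols, cDNA came from 10 ng of total RNA with a low-input kit (SMARTer). The SMARTer Ultra Low kit does not mark strand, so in bases shared with an antisense gene the source of a read cannot be told apart.

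The authors deposited a table of whole read counts per gene, not normalized, and a table of their own comparison. Per the file headers the latter holds log2 fold changes with their errors, a test score, p-values before and after adjustment, and a normalized signal averaged over libraries. From the counts, 287 repeated rows with identical values were dropped. Genes were filtered with filterByExpr (minimum count 10), scaled by TMM and tested with edgeR 4.0.16 (R 4.3.3), treatment only, with Benjamini-Hochberg adjustment over 18210 genes. Intervals of 95% use the moderated degrees of freedom, and standard errors are the fold change over the square root of F. DESeq2 1.42.0 and limma-voom 3.58.1 were alternatives, as were 3 scalings, 2 filters, a replicate block and leaving out each library. The fits were also run on simulated counts, and the outcome is not reported here. Coordinates, exon lengths and transcript matches (BLAST, at least 95% identity over 150 bases) come from GENCODE M21 (GRCm38), joined by Ensembl identifier, and promoters from RefSeq. Each pair of libraries differed by more than sampling noise. Figures used matplotlib 3.10.9.

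The members and gene lists were chosen with earlier results of these data known. The values of all 30 members are given, in full for the 10 with the smallest p and for Srebf1, Srebf2, Scap, Insig1, Insig2, Fasn, Scd1, Scd2, Hmgcs1 and Sqle, and further for those where single libraries stood apart, which were chosen after their values were seen. From each further pathway list the 2 genes with the smallest p were considered, and from each marker list the 2 most abundant. Microglial, neutrophil, oligodendrocyte, astrocyte, neuron, endothelial, border-associated macrophage and monocyte markers were listed. One microglial marker is not reported here.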

Additional observations from a re-analysis of the deposited data

How the results depend on the processing

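Over all genes edgeR called 0, also under the other scalings, in limma-voom, with a CPM filter, with a replicate block and without each library, while DESeq2 called 169 (84 higher, 85 lower), edgeR without a filter on low counts called 300 (183 higher), and neither called a member. At an unadjusted p under 0.05, 0 members were higher in limma-voom. Without 1 library, 0 to 1 were higher and 1 to 4 lower, with 0 and 1 when control library 2 was left out. Tm7sf2 was lower in each of these fits. For 17 members given in full, 222 of 238 alternative values kept their direction and 16 in 5 members changed sign. No value passed the adjusted threshold in any of these fits, so it says nothing of stability, and several crossed an unadjusted p of 0.05 (the values stand beside each gene). Hmgcs1 was -0.0058 with upper quartile scaling and -0.023 in limma-voom, Scd2 0.11 and Sqle -0.057 in limma-voom. Without 1 library the ranges were -0.12 to 0.20 for Hmgcs1, -0.046 to 0.15 for Scap, -0.35 to 0.25 for Scd2, -0.48 to 0.57 for Sqle and -0.0062 to 0.36 for Srebf1. The cause was not tested. Fits without a library have 2 in 1 group, assumed to vary like the other. The intervals of 9 members reached past 2-fold.

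No pairing by replicate number was detected. Deviations of libraries with the same number correlated at 0.0136, 0.029 and -0.0138, and not every library correlated best with its own number. With 3 libraries per group such weak correlations cannot show that the libraries were not paired. With the number as a block, 0 genes were called, Scd2 was 0.085, Sqle -0.051 and Mvk 0.55, and at an unadjusted p under 0.05 the higher members were 1 and the lower ones 2, against 1 and 3 without it.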
